A study of Homo sapiens with 6 samples.

Results

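The genes described here were 45 genes whose read counts were markedly lower in NK92 cells carrying an shRNA against miR155HG than in cells carrying a control shRNA. They were chosen from the same comparison that is described. Counts were scaled to a library total of 1000000 (CPM), and a gene entered when its mean over the 6 libraries was at least 5 CPM, when every shmiR155HG library lay below every shCtrl library, and when the log2 ratio of the group means was -0.6 or lower. Of 36601 genes in the count table, 9721 had a mean of at least 5 CPM and 54 met all thresholds, which was 0.555% of those 9721. Of these, 9 genes, GZMB, GZMH, CHI3L1, IL18R1, IL18RAP, CCR6, RCAN2, TNFRSF13C and TNFRSF10A, were left out, and the other 45 are described. Because the comparison chose them, their levels and ratios are given as a description, without a test. The test described below was fitted over all genes that passed a filter, the 45 included, and its results are given only for other genes.

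NK92 is a human natural killer (NK) lymphoma line that grows in IL-2. The study asked what the long non-coding RNA miR155HG does in NK cells, and compared 3 libraries of NK92 cells with stable shCtrl against 3 libraries with stable shmiR155HG. Cells of both groups had received 1000 U/mL of IL-2 together with 10 ng/mL of IL-12 for 12 h, so no unstimulated cells enter the comparison. Whether the libraries of a group came from separate cultures or separately infected lines is not given in the sources used here, so the spread between them may be technical. Library totals were 36588321 to 39157264 counts in shCtrl and 33454786 to 38481972 counts in shmiR155HG. MIR155HG itself, the targeted gene, had 73, 67 and 62 counts in shCtrl and 28, 19 and 10 counts in shmiR155HG, or 1.76 ± 0.159 against 0.509 ± 0.214 CPM (mean ± SD, n = 3). The groups did not overlap for the targeted gene, although its counts were few. Of the NK marker genes, 15 of 16 had at least 1 CPM, with summed levels of 3903 to 3975 CPM in shCtrl and 4225 to 4318 CPM in shmiR155HG. The T cell list had 5 of 11 genes at that level and CD8B at 0, with sums of 719 to 751 against 792 to 830.0 CPM. Of the 7 B cell markers PAX5 alone did, and the list summed to 230 to 263 against 341 to 344 CPM. The myeloid list had 2 of 7 (12.5 to 13.99 against 8.55 to 13.2 CPM, MPO and CD163 at 0), and no gene of the red cell and platelet list or the fibroblast and epithelial list reached 1 CPM. The part of these differences in the levels below was not tested. In bulk RNA, fewer cells that express a gene and less of its RNA per cell cannot be told apart.

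As background, NK cells are lymphocytes that kill infected or transformed cells and release cytokines, and the choice between attack and tolerance is set by activating and inhibitory receptors on their surface. IL-2 acts through JAK1 and JAK3 with STAT5, and IL-12 through TYK2 and JAK2 with STAT4, and both cytokines drive growth, granule contents and cytokine release. The miR155HG transcript is also the precursor of miR-155, a microRNA that pairs through its seed with matching sites in the 3′UTRs of mRNAs and lowers their output.

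The 45 genes had log2 ratios from -1.66 to -0.61 with a median of -0.73, where the median over the 9721 genes that reached 5 CPM was -0.0032. Expressed as a share of shCtrl, the shmiR155HG mean was 31.6% to 65.6% with a median of 60.5%. Only ASIC1, RAB6A, COL16A1, KIR3DL3, MATR3 and MX1, 6 of the 45, were below 50%, and MATR3 was counted as 1 of 2 overlapping entries whose sum was not lower. The set held 8 genes for surface receptors, 5 for adhesion or extracellular proteins, 4 for ion transport, 7 for membrane traffic or the cytoskeleton, 9 for signalling proteins and enzymes, 7 for the cell cycle or the nucleus, 2 interferon-stimulated genes and 3 without a stated role. Of the 45 genes, 44 were protein coding and AC008443.1 was a long non-coding RNA. Most were modestly expressed, with a median of 14.3 CPM over the 6 libraries, 18 genes under 10 CPM and 8 above 50 CPM. The lowest count behind any of these values was 104 in a library. Scaled by transcript length, the most abundant were MATR3 at 32.1, CLU at 28.2, RAB6A at 24.6, LMNA at 24.4 and CCNE2 at 22.5 CPM per kilobase, and the least abundant was RYR3 at 0.451 CPM per kilobase.

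**Figure D1:**
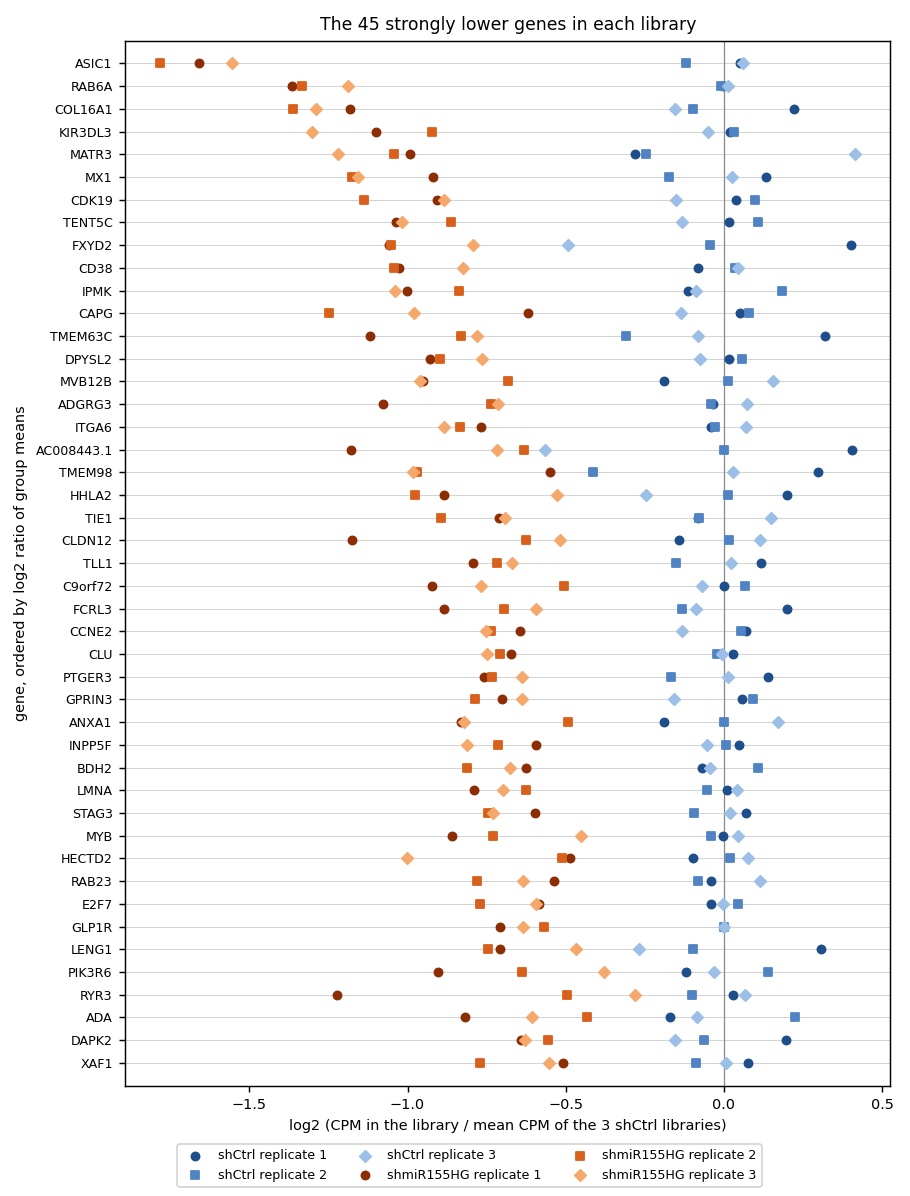
Level of each of the 45 genes in each library, as log2 of its CPM over the mean of the 3 shCtrl libraries; blue points are shCtrl libraries, orange and brown points shmiR155HG libraries, and genes are ordered by the ratio of group means. By the choice of the genes the colours do not overlap within a row, and the gap is widest for ASIC1 and RAB6A and narrowest for AC008443.1 and TMEM98.

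The spread within a group was similar on both sides. The coefficient of variation over 3 libraries had a median of 8.22% in shCtrl and 8.69% in shmiR155HG. In the plot of levels by library, the lowest shCtrl library exceeded the highest shmiR155HG library by 1.41-fold at the median, by more than 1.5-fold for 15 genes and by less than 1.1-fold for AC008443.1 and TMEM98. Extreme values were spread over the libraries. The lowest shmiR155HG value was in replicate 1 for 20 genes, in replicate 2 for 15 and in replicate 3 for 10, and the highest shCtrl value was in replicate 1 for 18, in replicate 2 for 12 and in replicate 3 for 15. Among the 9721 genes that reached the level threshold, 17.7% had every shmiR155HG library below every shCtrl library, so absence of overlap alone was common. The mirror thresholds upward were met by 76 genes, or 0.782%.

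Sequences of the 3′UTRs were compared because miR155HG is the precursor of miR-155. The mature miRNA is shown with its seed, bases 2 to 8, in capitals, followed by the matching site in capitals with 10 bases on each side, for the 6 genes of the set with a site and the highest mean CPM. The sites come from canonical transcripts of GENCODE release 44 on hg38, and the miRNA from RefSeq.
hsa-miR-155-5p: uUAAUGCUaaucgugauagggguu
MATR3 (chr5:139331337-139331363, plus strand): aggtacataaAGCATTAtgtgcacaat
RAB6A (chr11:73676234-73676260, minus strand): ttatgttgtaAGCATTActtaacacag
GLP1R (chr6:39090162-39090188, plus strand): cgagacaggaAGCATTAttaagcagta
CD38 (chr4:15848981-15849007, plus strand): tttttcagaaAGCATTAcatttccaaa
GPRIN3 (chr4:89247464-89247490, minus strand): tcatagaaatAGCATTAttgtatcatt
XAF1 (chr17:6773475-6773501, plus strand): caaaagctggAGCATTActcttgagaa

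All 6 windows lie in the 3′UTR. GPRIN3 held 3 sites and XAF1 held 2, of which 1 each is shown. MATR3, shown and counted here, is in the set through 1 of 2 overlapping entries. Their sum was not lower, at 483.9 CPM in shCtrl and 489.2 CPM in shmiR155HG. The site AGCATTA was found in 12 of the 44 genes with a 3′UTR, or 27.3%, namely RAB6A, MATR3, CD38, MVB12B, TMEM98, TLL1, GPRIN3, INPP5F, MYB, HECTD2, GLP1R and XAF1. Over the 10763 tested genes with a 3′UTR the share was 11.9%. The 3′UTRs of the set were also longer, with a median of 1826 against 1276 nucleotides. Per 1000 nucleotides of 3′UTR there were 0.168 sites in the set and 0.0743 over all tested genes. Split by length, a site was present in 0 of 15 genes of the set with a 3′UTR under 1000 nucleotides, where 2.53% of other tested genes had one. From 1000 to 2000 nucleotides it was present in 2 of 8, against 9.05%. From 2000 to 4000 it was present in 7 of 15, against 17.3%, and from 4000 upward in 3 of 6, against 37.6%. For miR-6756, the other miRNA that the study links to miR155HG, the study lists the 5p arm among its qPCR primers. That arm was not analysed here, and counts for the 3p arm do not describe it. The site GAAGGGG of the 3p arm was in 8 of 44 genes, or 18.2%, against 14.6% of tested genes. There were 0.0947 against 0.0913 such sites per 1000 nucleotides. These are letters in a 3′UTR and not measured binding, and mature miRNAs were not analysed here. The genes of the set were chosen as lower in shmiR155HG, where the precursor also had fewer counts. In the study, added miR-155 did not restore JAK3 protein in cells with shmiR155HG, and JAK3 is not in the set. The part of these sites in the levels was not tested.

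Promoter sequence was compared because the cytokines in the medium act through STAT proteins. RefSeq promoters, from 250 bases before to 50 bases after the start of the gene on GRCh38.p14, were matched for 35 of the 45 genes, and the STAT motif TTCNNNGAA, searched on both strands, occurred in 4 of them. These 4 windows are shown with the motif in capitals and 10 bases on each side, and the position of the first motif base relative to the gene start.
CLDN12 (chr7:90403356-90403384, plus strand, position -95): gcccagtggaTTCTGGGAAttgtagtccc
ANXA1 (chr9:73151866-73151894, plus strand, position 11): gtgtgaaatcTTCAGAGAAgaatttctct
KIR3DL3 (chr19:54724304-54724332, plus strand, position -128): ttggaacaatTTCCAGGAAgccatgttcc
ADA (chr20:44651816-44651844, minus strand, position -135): gggtccagaaTTCCAGGAAatgcgcgatc

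The 4 promoters were 11.4% of the 35, where 6.29% of the promoters of tested genes and 7.88% of all 27305 promoters held the motif. The AP-1 motif TGANTCA was in 3 of 35 (CAPG, FCRL3 and HHLA2; 8.57%, against 4.46% of tested and 7.76% of all promoters). The GC box GGGGCGGGG was in 15 of 35, or 42.9%, against 26.5% of tested and 16.0% of all promoters. TATAAA was in 4 (11.4% against 5.47% of tested and 12.0% of all), and the E-box CACGTG in 2 (5.71% against 10.4% and 7.43%). TCACACCT (T-box) and TGTGGTTT (RUNX) were in none of the 35 windows, and in 0.727% and 1.25% of tested promoters and 0.982% and 1.52% of all. All motifs were searched on both strands, and none of the motifs contains another. With 35 promoters a share moves by several percent with 1 gene, and a match is a description of letters.

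**Figure D2:**
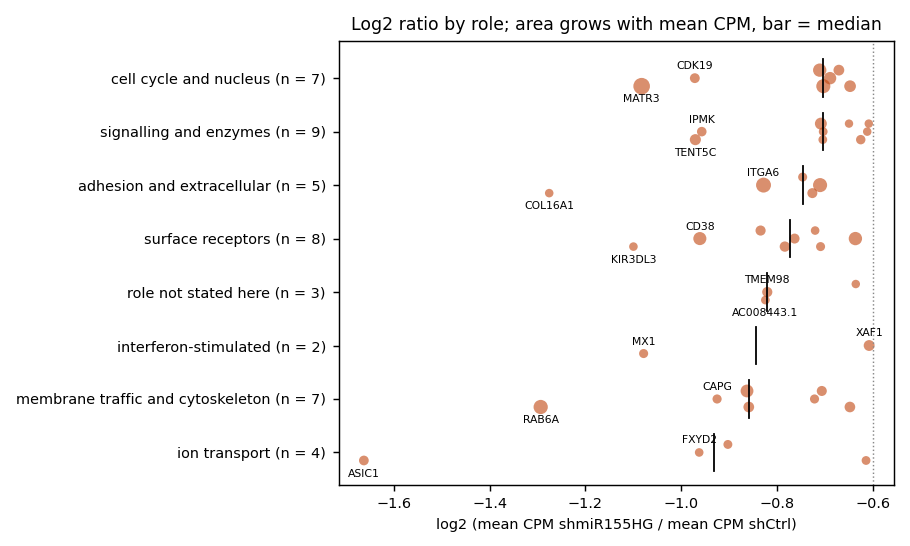
Log2 ratio of mean CPM, shmiR155HG over shCtrl, for the 45 genes grouped by role; each circle is a gene, its area grows with mean CPM, the black bar is the group median and the dotted line is the threshold of -0.6. Most circles lie near the threshold, with ASIC1, RAB6A and COL16A1 farthest to the left.

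The surface receptors had a median log2 ratio of -0.77. KIR3DL3, an inhibitory killer-cell immunoglobulin-like receptor, had 8.29, 8.36 and 7.89 CPM in shCtrl and 3.82, 4.31 and 3.32 CPM in shmiR155HG, a log2 ratio of -1.10. HHLA2, a B7 family protein that is a ligand of KIR3DL3, had 24.6, 21.6 and 18.1 CPM in shCtrl and 11.6, 10.9 and 14.9 CPM in shmiR155HG, a log2 ratio of -0.78. Receptor and ligand were thus both in the set, with KIR3DL3 the more evenly spaced of the pair. Sequences of KIR genes are alike and reads may be split between them, so the identity of the KIR reads is uncertain. CD38, an ectoenzyme on activated lymphocytes that breaks down NAD, had 68.8, 74.7 and 75.1 CPM in shCtrl and 35.8, 35.4 and 41.2 CPM in shmiR155HG (-0.96). The lowest shCtrl library was well above the highest shmiR155HG library for CD38, whose 3′UTR site is shown above. Receptors coupled to G proteins made up the next 3. ADGRG3, an adhesion receptor known from granulocytes, had 19.4, 19.3 and 20.9 CPM in shCtrl and 9.41, 11.9 and 12.1 CPM in shmiR155HG (-0.83). GLP1R, the receptor of the incretin GLP-1, had 73.7, 73.5 and 73.6 CPM in shCtrl and 45.1, 49.6 and 47.3 CPM in shmiR155HG (-0.64). The 3 shCtrl libraries of GLP1R were nearly identical and the shmiR155HG libraries lay below them by a smaller step than for CD38. PTGER3, the EP3 receptor for prostaglandin E2, lay at 8.99 to 11.1 CPM in shCtrl and 5.98 to 6.49 CPM in shmiR155HG (-0.71). TIE1, a receptor tyrosine kinase known from endothelium, had 16.96, 17.03 and 19.9 CPM in shCtrl and 10.97, 9.68 and 11.1 CPM in shmiR155HG (-0.76). FCRL3, an Fc receptor-like protein of lymphocytes, lay at 6.83 to 8.60 CPM in shCtrl and 4.05 to 4.96 CPM in shmiR155HG (-0.72). Both groups of FCRL3 were under 10 CPM.

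The relatives of these receptors were tested with edgeR's quasi-likelihood test, with p-values adjusted over all 12263 genes tested, of which, with the limit on the adjusted p set at 0.05, 8.02% were called lower and 7.26% higher, shares that include the genes chosen by the rule. Under the study's own thresholds for edgeR's exact test, 3.8% were lower here, and the study itself reported more lower genes. Close relatives and partners of the 45 genes had been listed after the set was known. Of 101 such genes, given for 40 of the 45, 80 passed the filter, and 15 were called lower (18.8%), 11 higher and 54 not called, with a median log2 fold change of 0.012. KIR2DL4, another KIR gene, fell from 89.4 to 62.7 CPM (log2 fold change -0.51, SE 0.059, adjusted p = 3.33e-07). CD274, which like HHLA2 belongs to the B7 family, fell from 8.82 to 5.91 CPM (-0.58, SE 0.18, adjusted p = 0.0248). FCRL6 fell from 17.2 to 13.1 CPM (-0.39, SE 0.12, adjusted p = 0.0317). Receptors of the same ligand or family also went the other way. PTGER4, the EP4 receptor, rose from 52.9 to 70.98 CPM (0.42, SE 0.068, adjusted p = 5.39e-05), while PTGER2 was not called at 153.5 and 143.9 CPM (adjusted p = 0.157). ADGRG1, which lies beside ADGRG3 on the chromosome, rose from 10.4 to 14.2 CPM (0.44, SE 0.14, adjusted p = 0.0278). NAMPT, which makes the NAD precursor that CD38 activity draws on, fell from 181.6 to 144.2 CPM (-0.33, SE 0.041, adjusted p = 1.04e-06). TEK, the partner of TIE1 in endothelium, was at 0 in all libraries.

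The adhesion and extracellular genes had a median log2 ratio of -0.75. ITGA6, the integrin α6 chain that binds laminin, had 126, 127 and 136 CPM in shCtrl and 76.01, 72.6 and 70.1 CPM in shmiR155HG (-0.83). ITGA6 was among the most abundant genes of the set and its libraries agreed closely within each group. Its chain partner ITGB1 rose from 119.6 to 136.7 CPM (0.19, SE 0.046, adjusted p = 0.00419), and its other partner ITGB4 was below the filter. COL16A1, a collagen chain, had 9.55, 7.65 and 7.35 CPM in shCtrl and 3.61, 3.18 and 3.35 CPM in shmiR155HG (-1.28). TLL1, a metalloprotease that processes collagen precursors, had 19.4, 16.1 and 18.2 CPM in shCtrl and 10.3, 10.9 and 11.2 CPM in shmiR155HG (-0.73). All 3 shmiR155HG libraries of TLL1 were close together. CLDN12, a claudin of cell junctions, had 9.16, 10.2 and 10.9 CPM in shCtrl and 4.47, 6.55 and 7.05 CPM in shmiR155HG (-0.75). CLU, the secreted chaperone clusterin, had 98.3, 95.003 and 95.9 CPM in shCtrl and 60.4, 59.1 and 57.3 CPM in shmiR155HG (-0.71). CLU showed little spread in either group. CLDN12 overlaps GTPBP10 and CDK14 on the same strand, and of these CDK14 was called lower (log2 fold change -0.33, adjusted p = 0.00226).

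The genes of ion transport had a median log2 ratio of -0.93, and ASIC1 had the lowest ratio of all 45. ASIC1, a sodium channel opened by protons, had 19.4, 17.2 and 19.5 CPM in shCtrl and 5.92, 5.44 and 6.37 CPM in shmiR155HG, or 18.7 ± 1.30 against 5.91 ± 0.461 CPM (log2 ratio -1.66). Its lowest shCtrl library was 2.70 times its highest shmiR155HG library, the widest gap of the set. ASIC3, another channel of the family, rose from 3.67 to 5.88 CPM (0.68, SE 0.23, adjusted p = 0.0454). FXYD2, the γ subunit of the sodium pump, had 10.7, 7.87 and 5.77 CPM in shCtrl and 3.90, 3.92 and 4.69 CPM in shmiR155HG (-0.96), and TMEM63C, of a family of mechanically gated channels, had 12.2, 7.93 and 9.27 CPM in shCtrl and 4.52, 5.52 and 5.71 CPM in shmiR155HG (-0.90). Both had a wide spread in shCtrl, and TMEM63C overlaps CIPC, at 35.2 and 39.01 CPM, on the same strand. Of the pump itself, the subunit gene ATP1B3 fell by 0.15 on the log2 scale (adjusted p = 0.03). RYR3, a calcium release channel, lay at 7.93 to 8.89 CPM in shCtrl and 3.64 to 6.99 CPM in shmiR155HG (-0.61). The related calcium channel ITPR1 fell from 70.7 to 59.8 CPM (-0.24, SE 0.065, adjusted p = 0.0103).

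The genes of membrane traffic and the cytoskeleton had a median log2 ratio of -0.86. RAB6A, a GTPase of Golgi transport, had 116, 115 and 117 CPM in shCtrl and 45.1, 46.1 and 50.96 CPM in shmiR155HG, or 116 ± 0.889 against 47.4 ± 3.16 CPM (log2 ratio -1.29). The libraries of each group were close together, and its shmiR155HG mean was the second lowest of the set as a share of shCtrl. Its exchange factor subunits RIC1 and RGP1 and its effector BICD2 were not called (adjusted p = 0.422, 0.282 and 0.892), nor was its paralog RAB6B, at 1.91 and 3.24 CPM (adjusted p = 0.138). RAB6A has a near-identical gene copy, RAB6C, and reads may be split between them. MVB12B, a subunit of the ESCRT-I sorting complex, had 23.2, 26.6 and 29.4 CPM in shCtrl and 13.7, 16.4 and 13.6 CPM in shmiR155HG (-0.86), and the ESCRT-I genes TSG101, VPS28 and VPS37B were not called (adjusted p = 0.672, 0.979 and 0.866). C9orf72, which acts in autophagy with SMCR8 and WDR41, had 10.7, 11.2 and 10.2 CPM in shCtrl and 5.64, 7.52 and 6.28 CPM in shmiR155HG (-0.72). WDR41 fell by 0.26 on the log2 scale (SE 0.065, adjusted p = 0.00592) and SMCR8 was not called (adjusted p = 0.0883). CAPG, an actin-capping protein, had 11.8, 11.998 and 10.3 CPM in shCtrl and 7.41, 4.79 and 5.77 CPM in shmiR155HG (-0.92). DPYSL2, which binds tubulin, had 65.1, 67.1 and 61.1 CPM in shCtrl and 33.9, 34.6 and 37.9 CPM in shmiR155HG (-0.86), and its paralog CRMP1 rose by 0.27 (SE 0.091, adjusted p = 0.039). The shmiR155HG libraries were more spread for CAPG than for DPYSL2. RAB23, a GTPase of ciliary signalling, lay at 23.04 to 26.4 CPM in shCtrl and 14.2 to 16.8 CPM in shmiR155HG (-0.65). ANXA1, a phospholipid-binding annexin with anti-inflammatory action, lay at 15.96 to 20.5 CPM in shCtrl and 10.2 to 12.9 CPM in shmiR155HG (-0.71), and its receptor FPR1 was at 0.

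The signalling proteins and enzymes had a median log2 ratio of -0.70. TENT5C, a poly(A) polymerase, had 32.8, 34.96 and 29.6 CPM in shCtrl and 15.8, 17.9 and 16.1 CPM in shmiR155HG (-0.97). IPMK, an inositol phosphate kinase, had 13.8, 16.9 and 13.99 CPM in shCtrl and 7.43, 8.34 and 7.23 CPM in shmiR155HG (-0.96), and of its neighbours in the pathway IP6K1 rose by 0.20 (SE 0.055, adjusted p = 0.0111) while ITPK1, IPPK, IP6K2 and ITPKB were not called. The shmiR155HG mean was 51.0% of the shCtrl mean for TENT5C and 51.5% for IPMK. GPRIN3, which interacts with G proteins, lay at 38.8 to 46.2 CPM in shCtrl and 25.1 to 27.9 CPM in shmiR155HG (-0.71), and its paralog GPRIN1 rose from 7.72 to 11.3 CPM (0.55, SE 0.15, adjusted p = 0.0144). INPP5F, a phosphoinositide phosphatase, lay at 7.89 to 8.47 CPM in shCtrl and 4.66 to 5.43 CPM in shmiR155HG (-0.70). PIK3R6, a regulatory subunit of PI3Kγ, lay at 11.5 to 13.8 CPM in shCtrl and 6.70 to 9.62 CPM in shmiR155HG (-0.62). The catalytic partner PIK3CG was not called at 207.1 and 220.3 CPM (adjusted p = 0.139), and the paralog PIK3R5 was near 0. ADA, which deaminates adenosine and whose loss causes immunodeficiency, lay at 5.996 to 7.87 CPM in shCtrl and 3.82 to 4.997 CPM in shmiR155HG (-0.61), and DPP4, its anchor on the cell surface, fell by 0.11 on the log2 scale (SE 0.039, adjusted p = 0.0469). DAPK2, a calmodulin-regulated kinase, lay at 5.90 to 7.51 CPM in shCtrl and 4.21 to 4.47 CPM in shmiR155HG (-0.61). HECTD2, a ubiquitin ligase, lay at 5.82 to 6.56 CPM in shCtrl and 3.11 to 4.44 CPM in shmiR155HG (-0.65). BDH2, a cytosolic dehydrogenase, lay at 8.11 to 9.16 CPM in shCtrl and 4.84 to 5.51 CPM in shmiR155HG (-0.70), and its relative BDH1 fell by 0.21 (SE 0.064, adjusted p = 0.0219). ADA, DAPK2 and HECTD2 were near the thresholds of the set.

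The genes of the cell cycle and the nucleus had a median log2 ratio of -0.70. CCNE2, a cyclin that drives entry into S phase with CDK2, had 78.5, 77.6 and 68.1 CPM in shCtrl and 47.8, 44.8 and 44.4 CPM in shmiR155HG (-0.71). CDK2 fell from 123.3 to 100.1 CPM (-0.30, SE 0.050, adjusted p = 7.12e-05), and CCNE1 was not called at 10.5 and 7.73 CPM (adjusted p = 0.0601). E2F7, a repressor of the E2F family, lay at 38.2 to 40.5 CPM in shCtrl and 23.01 to 26.2 CPM in shmiR155HG (-0.65), and its relatives E2F8 (-0.28, SE 0.066, adjusted p = 0.00353) and E2F1 (-0.21, SE 0.037, adjusted p = 0.000172) were lower too. MYB, a transcription factor of blood progenitors, lay at 25.4 to 26.9 CPM in shCtrl and 14.4 to 19.1 CPM in shmiR155HG (-0.67). Its paralog MYBL2 fell (-0.25, SE 0.042, adjusted p = 8.63e-05) and MYBL1 rose (0.21, SE 0.045, adjusted p = 0.00166). LMNA, which encodes the A-type lamins, had 96.6, 92.4 and 98.8 CPM in shCtrl and 55.5, 62.1 and 59.2 CPM in shmiR155HG (-0.70). The B-type lamin genes LMNB1 and LMNB2 were not called (adjusted p = 0.0548 and 0.934). STAG3, a cohesin subunit known from meiosis, had 56.1, 49.9 and 54.1 CPM in shCtrl and 35.3, 31.8 and 32.2 CPM in shmiR155HG (-0.69), while STAG1 and STAG2 were not called (adjusted p = 0.0558 and 0.742) and SMC3 fell by 0.23 (SE 0.042, adjusted p = 0.000363). STAG3 has partial gene copies, so the origin of its reads is uncertain. CDK19, a kinase of the Mediator complex, had 17.9, 18.7 and 15.7 CPM in shCtrl and 9.30, 7.92 and 9.45 CPM in shmiR155HG (-0.97), and its paralog CDK8 was not called (adjusted p = 0.787).

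MATR3, an RNA-binding protein of the nuclear matrix, had a ratio that depended on how reads were divided between overlapping entries. The annotation holds 2 MATR3 entries on the same strand, at chr5:139293674-139331677 for the entry in the set and at chr5:139273752-139331671 for the other. The entry in the set had 182, 186 and 294 CPM in shCtrl and 111, 107 and 94.8 CPM in shmiR155HG (-1.08). The other entry had 298.4, 311.8 and 179.0 CPM in shCtrl and 369.7, 384.0 and 401.1 CPM in shmiR155HG, a log2 ratio of 0.55. In shCtrl replicate 3 the split between the entries was reversed relative to the other shCtrl libraries. Their sum was 480.1, 498.1 and 473.5 CPM in shCtrl and 480.6, 491.1 and 495.9 CPM in shmiR155HG, or 483.9 ± 12.8 against 489.2 ± 7.83 CPM, and the groups overlapped. The sum did not reach the thresholds, and 44 genes remained when the entries were added together.

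**Figure D3:**
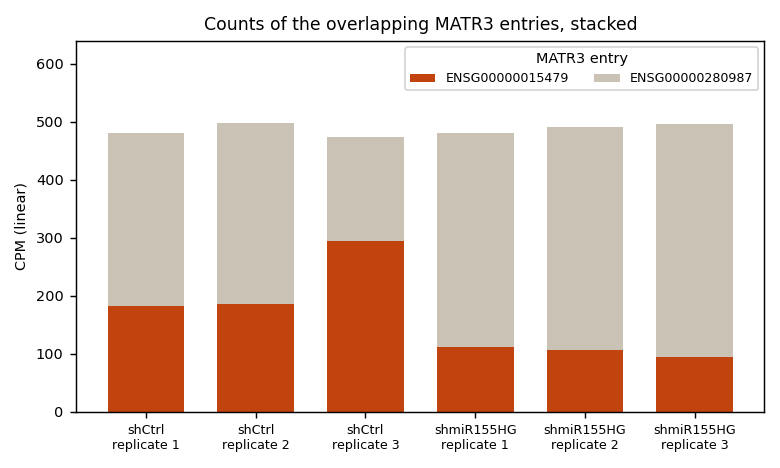
Stacked bars of CPM for the overlapping MATR3 entries in each of the 6 libraries, on a linear axis from 0; orange is the entry in the set and grey the other entry. The total height stays between 473.5 and 498.1 CPM while the orange part is smaller in all 3 shmiR155HG libraries.

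The interferon-stimulated genes were MX1 and XAF1. MX1, an antiviral GTPase, had 12.5, 10.1 and 11.6 CPM in shCtrl and 6.03, 5.05 and 5.11 CPM in shmiR155HG (-1.08). XAF1, a partner of XIAP in cell death, lay at 25.4 to 28.5 CPM in shCtrl and 15.8 to 18.996 CPM in shmiR155HG (-0.61). MX2, the neighbour and paralog of MX1, was at 0. The remaining genes carry no stated role here. TMEM98, a membrane protein, had 24.8, 15.2 and 20.6 CPM in shCtrl and 13.8, 10.3 and 10.2 CPM in shmiR155HG (-0.82), and the long non-coding RNA AC008443.1 had 11.1, 8.36 and 5.64 CPM in shCtrl and 3.69, 5.39 and 5.08 CPM in shmiR155HG (-0.82). The groups were separated least for these 2 genes. LENG1 lay at 5.49 to 8.18 CPM in shCtrl and 3.95 to 4.78 CPM in shmiR155HG (-0.64). AC008443.1 overlaps TRIM52-AS1 on its own strand and RACK1 and TRIM52 on the opposite strand. RACK1 stood at 920.9 and 892.8 CPM, and TRIM52 rose by 0.57 on the log2 scale (adjusted p = 0.000147). In all, 10 of the 45 genes overlap a gene of at least 1 CPM, 5 of them on the same strand (MATR3, TMEM63C, AC008443.1, CLDN12 and BDH2) and 5 only on the opposite strand (ITGA6, CCNE2, RAB23, LENG1 and RYR3). Whether counting used the strand is not given in the sources used here, so reads of these genes may be shared with the overlapping gene.

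Lists of related genes show how far the levels of the 45 were shared by genes outside the set, by the same test. Over all genes tested, 8.02% were called lower and 7.26% higher. Of 31 interferon-stimulated genes other than MX1 and XAF1, 10 were called lower (32.3%) and 3 higher, with a median log2 fold change of -0.10. OAS1, an antiviral synthetase, fell from 4.03 ± 1.29 to 2.24 ± 0.240 CPM (log2 fold change -0.85, SE 0.28, adjusted p = 0.0396), and USP18, a brake on interferon signalling, fell from 16.9 to 12.7 CPM (-0.42, SE 0.13, adjusted p = 0.0239). IFIT3 rose from 36.6 to 49.9 CPM (0.45, SE 0.070, adjusted p = 4.08e-05), so the list was not of 1 direction. Without shmiR155HG replicate 1, 2 or 3 the count of lower genes was 6 in each case. For 49 G protein-coupled receptors for lipids, nucleotides and adhesion besides PTGER3 and ADGRG3, 5 were called lower (10.2%) and 8 higher, with a median of -0.06. ADGRF2 rose from 5.79 to 11.7 CPM (1.01, SE 0.16, adjusted p = 2.99e-05) and ADGRF4 from 3.09 to 5.63 CPM (0.86, SE 0.25, adjusted p = 0.0158). The count of lower receptors was 3 without shCtrl replicate 2 or shmiR155HG replicate 3, and 2 without shCtrl replicate 3 or shmiR155HG replicate 2.

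Among 70 RAB GTPase and synaptotagmin genes other than RAB6A and RAB23, 4 were called lower and 3 higher, with a median of -0.02. The share called lower was 5.71%, beside 8.02% over all genes tested. SYTL1, a synaptotagmin-like protein, had 45, 41 and 24 counts in shCtrl and 4, 3 and 0 counts in shmiR155HG. It is 1 of the 4 called lower, but it passed the filter only through shCtrl, the group where it is high, so its fold change is not given. SYTL2 fell from 57.3 to 47.04 CPM (-0.29, SE 0.066, adjusted p = 0.00304), and RAB11FIP4 rose from 50.2 to 74.3 CPM (0.56, SE 0.063, adjusted p = 2.13e-07). The lower count was 1 without shCtrl replicate 1, and 2 without shCtrl replicate 2 or shmiR155HG replicate 1 or 2. Of 36 lists scored, 7 held 1 gene of the set each, and the pair with the largest shares of lower genes, S phase at 71.1% and lipid enzymes at 23.3%, is described further, a choice made after the values were seen. In the other 5 the share of genes outside the set called lower was 16.4% for ion channels, 13.3% for integrins and cadherins, 12.2% for extracellular matrix and proteases, 9.68% for tetraspanins and annexins and 8.33% for C-type lectin and KIR receptors. Over all genes tested this share was 8.02%. Of 38 DNA replication and S-phase genes other than CCNE2, 27 were called lower and none higher by edgeR, with a median of -0.19, and 21 to 24 were lower when 1 library was left out. RRM2, a ribonucleotide reductase subunit, fell from 976.3 ± 17.2 to 745.5 ± 8.26 CPM (-0.39, SE 0.030, adjusted p = 2e-10), CDC45 fell by 0.35 (SE 0.055, adjusted p = 3.26e-05) and CHAF1B by 0.31 (SE 0.066, adjusted p = 0.00161). The called S-phase genes had log2 fold changes from -0.39 to -0.11, beside the log2 ratio of -0.71 of CCNE2. Histone genes named HIST1, HIST2 or HIST3 summed to 78.5 to 85.5 CPM in shCtrl and 140.6 to 158.5 CPM in shmiR155HG, and their part in the S-phase result was not tested. Of 60 lipid and phosphoinositide enzymes other than INPP5F, 14 were called lower and 7 higher (median -0.04), with ALOX5AP lower (-0.48, SE 0.047, adjusted p = 1.37e-08) and ALOX12 (1.03, SE 0.32, adjusted p = 0.0269) and PLCH2 (0.86, SE 0.15, adjusted p = 0.000212) higher. Without shCtrl replicate 2, or without shmiR155HG replicate 1 or 2, 9 of these enzymes were lower.

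**Figure D4:**
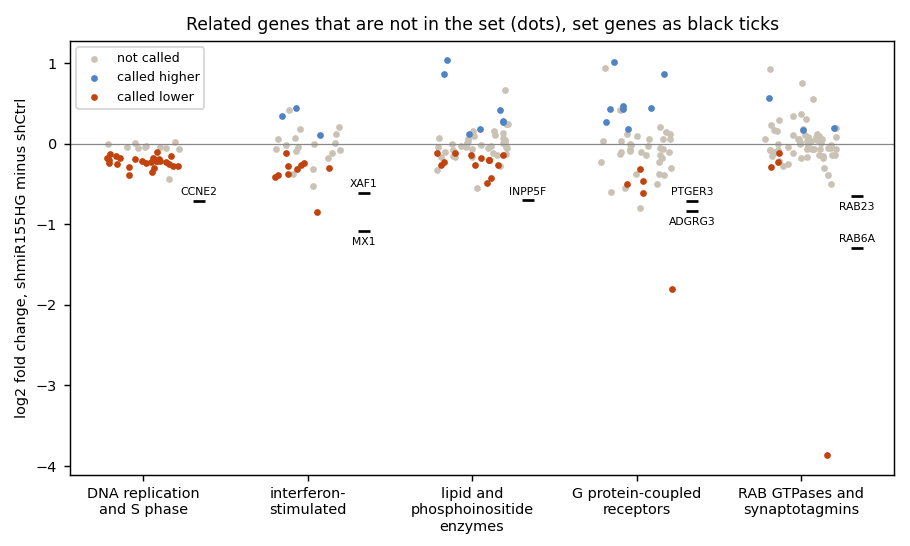
Fitted log2 fold change of genes outside the set in the lists described, shmiR155HG minus shCtrl; red is called lower, blue called higher and grey not called at an adjusted p under 0.05 by edgeR's quasi-likelihood test, and black ticks are the log2 ratios of the genes of the set that belong to the list. In the S-phase list the called genes all lie below 0, while called genes of the other lists lie on both sides.

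The 45 genes lay on 19 chromosomes, and only 2 pairs lay within 1 Mb of each other. LENG1 and KIR3DL3 on chromosome 19 were 564.7 kb apart, and DPYSL2 and CLU on chromosome 8 were 938.7 kb apart. Of the 90 nearest tested genes on either side, none was in the set, and 11 were called lower (12.2%) and 6 higher, with a median log2 fold change of -0.03. Some of these overlap a gene of the set, such as CDK14 and INTS8 (called lower) and TRIM52 (called higher). Others were distant, such as ZWINT (called lower), 1830244 bases from IPMK. Over all genes tested, 8.02% were called lower and 7.26% higher. FCRL4, beside FCRL3, had the lowest fold change among those called (-1.39, adjusted p = 0.000311). The lower count was 6 without shCtrl replicate 2 and 7 without shmiR155HG replicate 1. Transcripts of the set were somewhat longer than those of tested genes, with medians of 3886 and 3046 nucleotides, and had 12 against 8 exons. Genes spanned 44.3 kb at the median against 28.8 kb. GC content was alike, at 48.7% and 48.3%.

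At the thresholds, DAPK2, ADA and XAF1 were the last genes inside by ratio, at -0.61 each. MCTP1 (-0.596), ZNF37A (-0.595) and TPCN1 (-0.588) were the first outside. By level, HECTD2 was the last inside with a mean of 5.10 CPM, and GPR19 at 4.82, POU2F3 at 4.69 and AP001453.3 at 4.49 CPM were the first outside. SLC14A2 and ZNF561-AS1 reached the ratio but had overlapping groups. Between -0.6 and -0.5 lay 32 further genes without overlap, among them CD274, IL10, KIR2DL4, GBP2 and TOX2, and 64 genes with means of 1 to 5 CPM met the other thresholds.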

How the data were processed

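Poly(A) RNA from 6 libraries of NK92 cells, 3 shCtrl and 3 shmiR155HG, was sequenced as pairs of 150 bases. Alignment to hg38 was done with HISAT2 and gene counts were made with StringTie by the authors, who deposited whole-number counts per gene without normalization. The annotation release and the use of strand are not given in the sources used here. Titles were used for grouping, since 2 treatment labels of the shmiR155HG group number the gene differently.

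Library totals were 33454786 to 39157264 counts. Other genes were tested in R 4.3.3 with edgeR 4.0.16 (more than 1 CPM in at least 2 libraries, TMM scaling, robust quasi-likelihood test, Benjamini-Hochberg adjustment over 12263 genes, adjusted p under 0.05), after the method had been tested on simulated data. DESeq2 1.42.0, limma 3.58.1 and edgeR's exact test were alternatives. Gene models came from GENCODE release 44, matched by identifier for 36366 of 36601 genes. The members and the gene lists were chosen with earlier results of these data known. Every gene of the set was described under its role. CPM in all libraries were given for the 24 genes with the lowest ratio and the 10 with the highest mean, and up to 3 called genes were named per list, apart from a gene that is not reported here. The GC correction and the summed MATR3 entries were added after seeing the data. All intervals of precision are SD or SE over libraries and do not cover PCR duplicates.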

Additional observations from a re-analysis of the deposited data

How the results depend on the processing

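With TMM or DESeq2 size factors 45 genes met the rule, and all were shared with the set. The number was 109 with a mean of at least 1 CPM, 27 with at least 10 CPM, 77 with a log2 ratio of at most -0.5, 19 with at most -0.8, and 45 to 56 when 1 library was left out, which lost 2 to 6 of the 45 (HECTD2 in 4 of the 6 cases). Requiring no separation gave 47, the GC correction 47 (losing HECTD2, XAF1 and RAB23) and summing the MATR3 entries 44. Under the scalings and the replicate block, all log2 ratios of single genes kept their direction and moved by less than 1 SD. TMM factors lay between 0.997 and 1.003, so TMM scaling could hardly move a ratio. With 1 library left out the ratios did so too, but none of these settings is a check on direction. The rule allows no overlap, which fixed the direction. In such small groups, dropping 1 library cannot move a mean by 1 SD.

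Among all genes, 984 were lower and 890 higher. The exact test at an unadjusted P under 0.01 with a fold change over 1.2 gave 466 and 551, and leaving out 1 library gave 674 to 917 and 580 to 891, the lowest of both without shmiR155HG replicate 2. The study itself reported more lower and more higher genes than the exact test gave here. Leaving out 1 library gave 10 to 13 lower relatives, 6 to 11 lower neighbouring genes, 1 to 4 RAB and synaptotagmin genes, 2 to 4 G protein-coupled receptors, 6 to 9 interferon-stimulated genes and 9 to 12 lipid enzymes.

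No pairing by replicate number was seen: same-numbered libraries had correlations of -0.013, 0.012 and 0.020 of their deviations. Over all tested genes such values cannot exclude a pairing that touched few genes. With the replicate block 909 genes were lower and 829 higher.

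The counts of genes near 5 CPM, from 104 upward in a library, limit how well small ratios near the thresholds can be placed.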
